A study of Mus musculus with 12 samples.

Results

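Hair shaft keratins are the intermediate filament proteins from which the hair fibre is built, and their transcripts were followed here in dermis from a mouse model of skin wounds. The set was defined by gene symbol and named 10 genes, with earlier results of these data known. Of these, 9 were matched by Ensembl gene ID among the 55401 genes of the deposited table, namely the type I keratins Krt31, Krt32, Krt33a, Krt33b, Krt34 and Krt35 and the type II keratins Krt81, Krt83 and Krt86. The remaining gene was not analysed here. RNA sequencing covered 12 samples of C57BL/6 dermis, all from animals aged 6 weeks, in 4 groups, each with 3 biological replicates: wild type (WT) on day 0, Cthrc1-/- on day 0, WT on day 7 and Cthrc1-/- on day 7. Cthrc1 encodes a secreted protein with a collagen-like stretch. The labels state neither how the Cthrc1 allele was made nor whether tissue of several animals was pooled.

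A hair follicle cycles between growth (anagen), regression (catagen) and rest (telogen), and the keratins of the shaft are made by the matrix-derived cells of growing follicles. Type I (acidic) and type II (basic) keratins pair to form filaments, which are later embedded in keratin-associated proteins. From work on human follicles, KRT35 is known as an early keratin of the matrix and cuticle, KRT32 as a cuticle keratin, KRT31 as an early cortex keratin, and KRT33A, KRT33B, KRT34, KRT81, KRT83 and KRT86 as keratins of the cortex.

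The type I genes lie close together on chromosome 11 and the type II genes on chromosome 15 (GRCm38, GENCODE M21 annotation). On chromosome 11 the order, all on the minus strand, was Krt33a (ENSMUSG00000035592, 100011195 to 100016212), Krt33b (ENSMUSG00000057723, 100023634 to 100029868), Krt34 (ENSMUSG00000043485, 100037347 to 100041554), Krt31 (ENSMUSG00000048981, 100046646 to 100050551), Krt32 (ENSMUSG00000046095, 100080848 to 100088226) and Krt35 (ENSMUSG00000048013, 100092193 to 100096241). On chromosome 15 the order was Krt81 (ENSMUSG00000067615, 101459061 to 101463751, minus strand), Krt86 (ENSMUSG00000067614, 101473478 to 101479986, plus strand) and Krt83 (ENSMUSG00000067613, 101485130 to 101491512, minus strand).

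Because the members moved together across samples, the 250 bases before the annotated start are shown for the 4 members with an entry in the RefSeq promoter table (GRCm38.p6). Each is written 5′ to 3′ on the strand of the gene, and capitals mark the 3 motifs named after the sequences.
Krt31 (chr11:100050552-100050801, minus strand): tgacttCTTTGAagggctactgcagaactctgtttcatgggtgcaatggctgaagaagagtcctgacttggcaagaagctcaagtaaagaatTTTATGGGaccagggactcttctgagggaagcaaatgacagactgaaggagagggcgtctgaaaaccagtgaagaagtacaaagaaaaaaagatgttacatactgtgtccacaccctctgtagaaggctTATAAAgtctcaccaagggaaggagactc
Krt32 (chr11:100088270-100088519, minus strand): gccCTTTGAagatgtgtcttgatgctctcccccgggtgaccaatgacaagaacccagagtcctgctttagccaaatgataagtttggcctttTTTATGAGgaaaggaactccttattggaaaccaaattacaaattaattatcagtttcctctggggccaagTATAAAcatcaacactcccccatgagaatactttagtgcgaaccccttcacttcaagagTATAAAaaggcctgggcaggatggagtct
Krt33b (chr11:100029869-100030118, minus strand): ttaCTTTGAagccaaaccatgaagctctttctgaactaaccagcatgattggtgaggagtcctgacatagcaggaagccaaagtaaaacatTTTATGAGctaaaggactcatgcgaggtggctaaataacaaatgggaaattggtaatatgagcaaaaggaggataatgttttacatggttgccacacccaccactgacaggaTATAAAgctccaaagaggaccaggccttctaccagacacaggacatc
Krt34 (chr11:100041555-100041804, minus strand): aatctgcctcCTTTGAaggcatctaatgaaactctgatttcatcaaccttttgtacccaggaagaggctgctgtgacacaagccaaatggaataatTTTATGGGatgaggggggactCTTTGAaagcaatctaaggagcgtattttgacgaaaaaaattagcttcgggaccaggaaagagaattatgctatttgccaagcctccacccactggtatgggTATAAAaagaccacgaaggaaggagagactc
A TATA box (TATAAA) was in all 4 windows and in 12.3% of 32536 RefSeq windows of that length, searched on both strands. A form of the LEF1 and TCF site (CTTTGA) was in all 4 and in 13.9% of all windows. A form of the site of HOXC13, a regulator of hair keratin genes (TTTATGNG), was in all 4 and in 2.51% of all windows. No marked match overlapped another. The LEF1 and TCF form began between 247 and 240 bases before the start and the HOXC13 form between 159 and 154 bases before it in each of the 4, and Krt34 held a further LEF1 and TCF form and Krt32 a further TATA box. The letters of the HOXC13 form were picked after the windows had been read. Of 3 other motifs searched, the LEF1 and TCF form CTTTGT was in 1 of 4 windows (16.5% of all). The FOXN1 core GACGC was in 1 of 4 (22.7%), and the HOX13-type form CAATAAA in 0 of 4 (4.11%). These are matches of letters only. The 4 windows belong to neighbouring genes of 1 keratin type and were 46.5% to 56.1% identical in pairs. A count of 4 is therefore not a count of independent windows. The RefSeq start of Krt32 lies upstream of the GENCODE start.

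Close copies limit how the members can be told apart. In a stretch of 60 coding bases, taken at the same distance from the start codon in 4 neighbouring type I genes, 13 positions differed and are shown in capitals.
Krt31: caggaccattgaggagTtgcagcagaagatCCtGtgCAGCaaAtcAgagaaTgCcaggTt
Krt33a: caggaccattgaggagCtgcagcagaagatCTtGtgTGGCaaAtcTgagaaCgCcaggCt
Krt33b: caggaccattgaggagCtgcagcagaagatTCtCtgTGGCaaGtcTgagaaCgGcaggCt
Krt34: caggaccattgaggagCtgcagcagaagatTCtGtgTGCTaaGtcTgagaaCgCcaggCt
Over the whole coding sequence Krt33a and Krt33b were 93.3% identical, Krt81 and Krt83 93.1%, and Krt81 and Krt86 92.9%. The longest stretch without a difference was 374 bases, between Krt81 and Krt86. Of the 150-base stretches of the Krt81 transcript, 16.6% occurred unchanged in a transcript of another gene, mostly Krt86. The share was 14.4% for Krt86, 9.52% for Krt33a and 6.35% for Krt31, it was 146 of 1460 stretches for Krt34, and it was 0% for Krt32, Krt33b, Krt35 and Krt83. How such reads were divided was not stated in the sources used here, so the values of Krt81 and Krt86, and of Krt31, Krt33a and Krt34, are uncertain to that degree.

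Total counts ran from 48329668 to 76938132 per sample. Cthrc1 was at 1813 to 11678 counts in the WT libraries and at 0 to 15 in those labelled Cthrc1-/-. The 6 dermal fibroblast markers examined (Col1a1, Col1a2, Col3a1, Dcn, Lum and Pdgfra) were present in every group. So were 6 keratinocyte markers of the epidermis (Krt5, Krt14, Krt1, Krt10, Lor and Ivl), which summed to between 2246 and 9402 FPKM (fragments per kilobase, a level the authors scaled to gene length and library size). The Cthrc1-/- day 0 libraries stood apart from one another: their fibroblast markers summed to 2386, 1296 and 337 FPKM in replicates 1 to 3, against 4814 to 6441 FPKM in WT day 0.

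In WT dermis on day 0 the hair shaft keratins were low, Krt32 excepted. The 9 genes together reached 6.85, 7.55 and 10.04 FPKM in replicates 1 to 3. Krt32 made up 85.1%, 76.9% and 79.3% of that sum. Krt33b had 0 counts in all 3 libraries, where 3 counts, the number a count of 0 allows, corresponded to a CPM (count scaled to library size) of 0.0390 to 0.0615. Krt33a, Krt81 and Krt86 had 0 counts in replicate 1.

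The other 3 groups held much more, and varied widely within each group. The summed level of Cthrc1-/- day 0 was 35.2, 1144 and 2829 FPKM in replicates 1 to 3. In WT day 7 it was 84.4, 444 and 284 FPKM, and in Cthrc1-/- day 7 it was 266, 27.5 and 732 FPKM. The members took 0.601% of all counts in Cthrc1-/- day 0 replicate 3, the largest share of any library, and 0.00131% in WT day 0 replicate 1, the smallest. These are bulk samples, in which fewer cells of a type and less RNA per cell cannot be told apart.

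**Figure D1:**
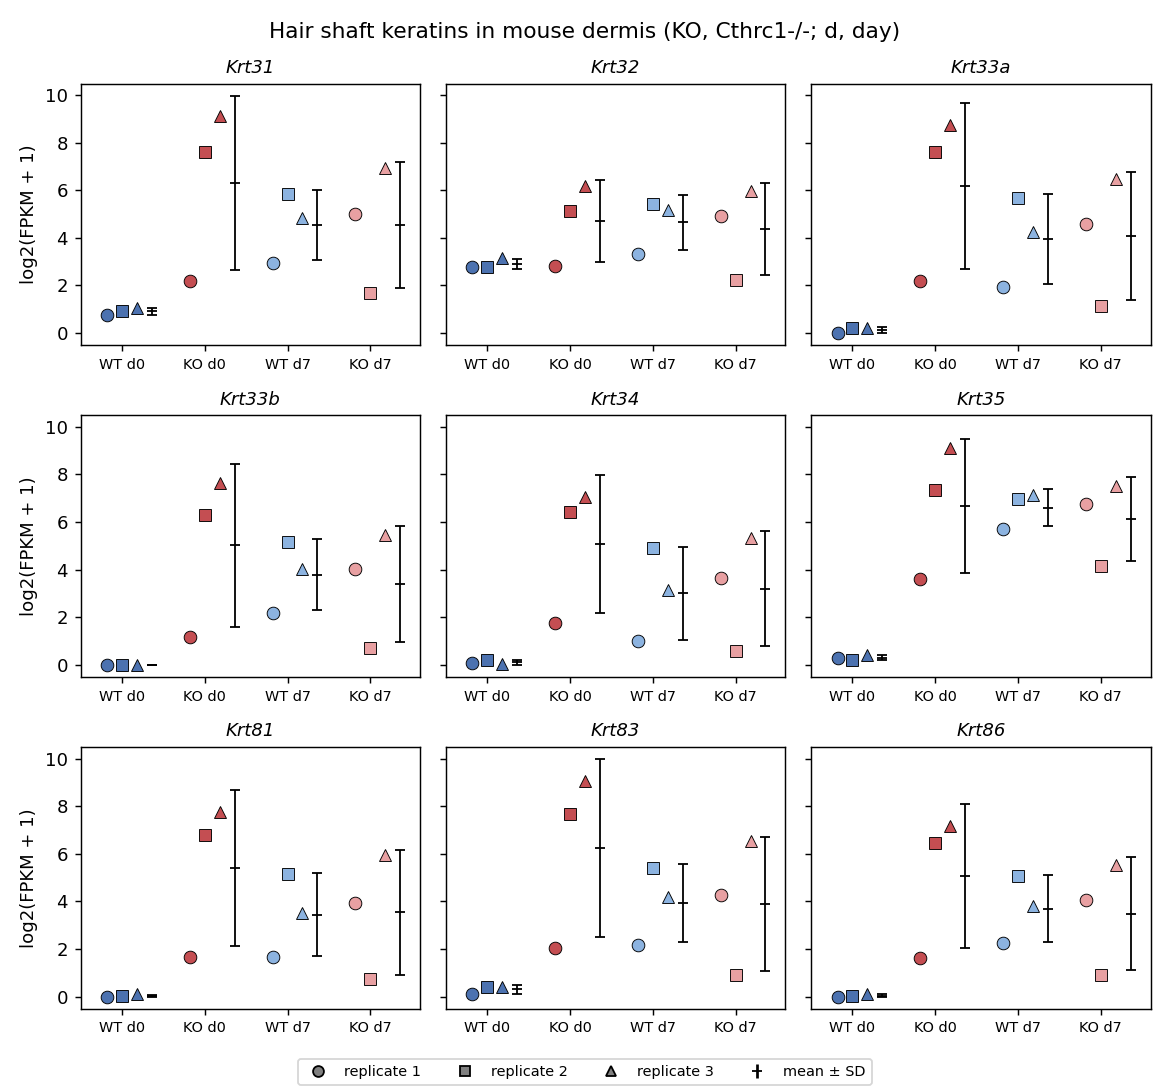
Level of each of the 9 hair shaft keratins as log2(FPKM + 1) on the y axis, by group on the x axis (KO, Cthrc1-/-; d0 and d7, day 0 and day 7), with 1 symbol per replicate and the mean ± SD of 3 replicates on that scale beside them. The WT day 0 samples lie close together at the bottom of every panel except that of Krt32, where they sit between 5.81 and 7.96 FPKM, and the spread within the other groups is wide.

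Krt35, the early keratin of matrix and cuticle, had the highest mean level on day 7 in both genotypes, but not on day 0, when Krt32 led in WT (6.53 FPKM) and Krt31 and Krt83 led in Cthrc1-/- (253 and 246 FPKM). In WT day 0 it was at 0.207, 0.162 and 0.335 FPKM in replicates 1 to 3. The Cthrc1-/- samples of that day held 11.2, 161 and 546 FPKM. By day 7 the values were 51.8, 123 and 139 FPKM for WT, and 108, 16.8 and 180 FPKM for Cthrc1-/-. Every sample of the other groups thus lay above every WT day 0 sample, while the other 3 groups overlapped one another. Group means were 0.235 ± 0.0896, 239 ± 276, 105 ± 46.4 and 102 ± 81.8 FPKM (SD, n = 3 each) in that order.

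Krt31, the early cortex keratin, measured 0.701, 0.908 and 1.09 FPKM in WT day 0 and 3.57, 193 and 562 FPKM in Cthrc1-/- day 0. On day 7 it measured 6.72, 56.1 and 27.5 FPKM in WT and 30.8, 2.20 and 123 FPKM in Cthrc1-/-. The low libraries were those already low for Krt35, namely replicate 1 of Cthrc1-/- day 0, replicate 1 of WT day 7 and replicate 2 of Cthrc1-/- day 7.

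Krt33b, a cortex keratin, was absent from the WT day 0 counts. Without Cthrc1 it reached 1.23, 76.4 and 199.7 FPKM on day 0. On day 7 it reached 3.51, 34.5 and 15.5 FPKM in WT, and 15.3, 0.625 and 42.3 FPKM in Cthrc1-/-. All 9 of these libraries thus held the transcript. Its close copy Krt33a spanned 0 to 0.169 FPKM (WT) and 3.57 to 429 FPKM (Cthrc1-/-) on day 0, and 2.87 to 50.6 FPKM (WT) and 1.22 to 88.0 FPKM (Cthrc1-/-) on day 7. Krt34, also of the cortex, was the lowest member in all 6 libraries of day 7, at 0.988, 28.7 and 7.91 FPKM in WT and 11.5, 0.490 and 39.6 FPKM in Cthrc1-/-. On day 0 Krt34 measured 2.33, 84.8 and 131 FPKM without Cthrc1 and at most 0.162 FPKM in WT.

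Among the 3 type II members, all cortex keratins, Krt83 had the highest mean level over the 12 samples. Its levels were 0.0700, 0.324 and 0.323 FPKM in WT day 0 and 3.06, 203 and 532 FPKM in Cthrc1-/- day 0. They were 3.49, 41.6 and 17.4 FPKM in WT day 7 and 18.01, 0.871 and 90.9 FPKM in Cthrc1-/- day 7. Krt83 was thus high and low in the same libraries as Krt31. Krt81 ranged from 0 to 0.0638 FPKM (WT) and 2.17 to 218 FPKM (Cthrc1-/-) on day 0, and from 2.16 to 34.8 FPKM (WT) and 0.680 to 61.6 FPKM (Cthrc1-/-) on day 7. Krt86 ranged from 0 to 0.0682 and 2.06 to 143 FPKM on day 0, and from 3.72 to 32.4 and 0.864 to 44.8 FPKM on day 7, with WT given first. In all 3 type II genes the WT day 0 range lay below the ranges of the other groups.

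Krt32, the cuticle keratin, was the exception among the 9. It stood at 5.83, 5.81 and 7.96 FPKM in WT day 0, well above every other member there. The Cthrc1-/- values on day 0 were 6.05, 34.4 and 70.4 FPKM, so that replicate 1 lay inside the WT range. On day 7 it measured 9.14, 42.4 and 35.01 FPKM in WT and 28.8, 3.72 and 61.8 FPKM in Cthrc1-/-, where replicate 2 was below all WT day 0 samples. Its levels thus covered a far narrower range than those of the other members.

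Across the 12 samples the correlation (Pearson r on log2(FPKM + 1)) of each member with the mean of the other 8 was 0.907 for Krt35, 0.931 for Krt32 and between 0.986 and 0.999 for the remaining 7. This is a description over 12 samples that share libraries and groups. The make-up of the pool differed between libraries. Krt35 was the most abundant member in all 6 day 7 libraries and in Cthrc1-/- day 0 replicate 1, whereas Krt83 led in replicate 2 and Krt31 in replicate 3 of Cthrc1-/- day 0. Krt35 accounted for 61.4%, 27.6% and 49.1% of the summed FPKM in WT day 7 replicates 1 to 3, and for 40.8%, 61.1% and 24.6% in Cthrc1-/- day 7. Its share was lower in replicates 2 and 3 of Cthrc1-/- day 0, where replicates 1 to 3 had 31.7%, 14.1% and 19.3%.

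The ratio of Krt35 to Krt31, both per length, set the same libraries apart. It was 7.71, 2.19 and 5.07 in WT day 7 and 3.52, 7.62 and 1.46 in Cthrc1-/- day 7. For Cthrc1-/- on day 0 it was 3.13, 0.832 and 0.972, and in WT day 0 it was 0.296, 0.178 and 0.306. Among the 6 libraries of day 7 the ratio was lowest in Cthrc1-/- replicate 3, which had the largest summed level, and highest in WT replicate 1 and Cthrc1-/- replicate 2, which had the smallest. The summed type I level was 1.85 to 10.4 times the type II level in the 9 libraries outside WT day 0. These sums held 6 type I and 3 type II genes, and Krt87, a type II hair keratin outside the set, was not in them. The ratio is therefore no measure of the balance of the 2 types.

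**Figure D2:**
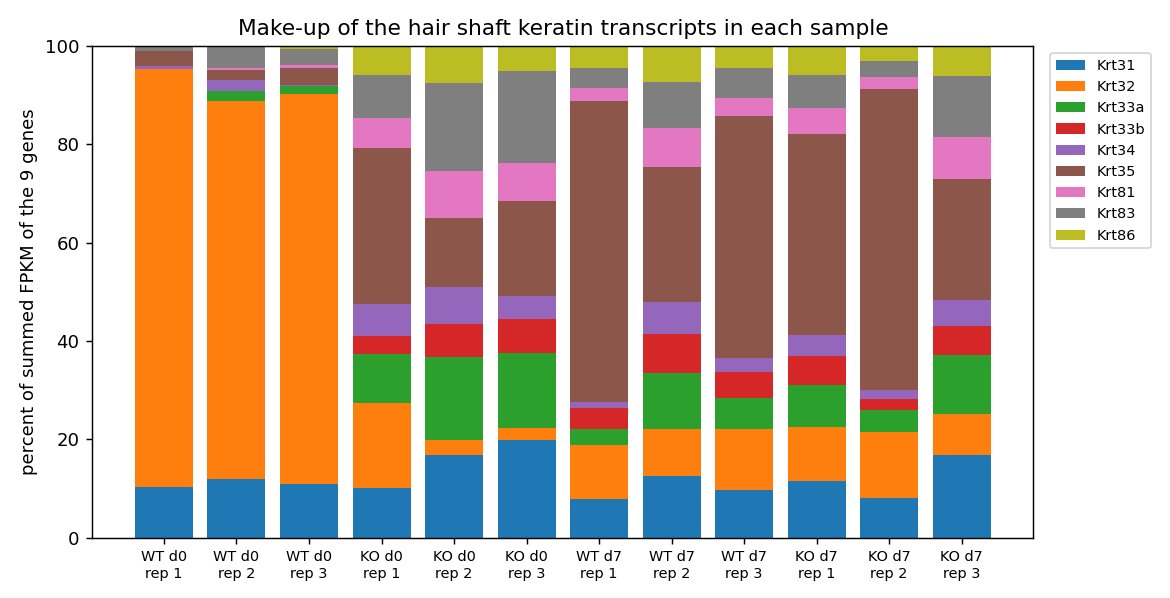
Stacked bars giving each gene's percent of the summed FPKM of the 9 hair shaft keratins (y axis, 0 to 100) in each of the 12 samples (x axis). Krt32 fills 76.9% to 85.1% of the bars of WT day 0, Krt35 is the largest part of all day 7 bars, and in Cthrc1-/- day 0 replicates 2 and 3 the parts are spread over Krt31, Krt33a, Krt35 and Krt83.

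The first comparison set Cthrc1-/- dermis against WT dermis on day 0. Of the 9 members, 8 rose in Cthrc1-/- by the quasi-likelihood test of edgeR fitted to all 12 samples (adjusted p under 0.05), where 3.51% of the 14313 genes tested were called higher. All 9 had an unadjusted p under 0.05, as had 28.4% of genes tested. For the same 8 members all Cthrc1-/- samples lay above all WT samples, as for 21.5% of genes tested. On the log2 scale Krt35 was up by 9.79 ± 1.54 (standard error; edgeR adjusted p = 0.0168), Krt86 by 11.07 ± 2.22 (adjusted p = 0.0318) and Krt81 by 11.68 ± 2.51 (adjusted p = 0.0359). Krt33a rose by 10.71, Krt34 by 9.52, Krt83 by 9.78 and Krt31 by 7.95, with edgeR adjusted p of 0.0386, 0.0419, 0.0419 and 0.0447. Krt33b, at 0 counts in WT, was at least 3079-fold higher in mean CPM against a floor of 3 counts per library (edgeR adjusted p = 0.0436). That mean came mostly from Cthrc1-/- replicates 2 and 3, at 134 and 348 CPM, while replicate 1 was at 2.17 CPM. The bound does not cover this spread. Krt32 did not pass, at 2.34 ± 0.981 (log2 change ± standard error; edgeR adjusted p = 0.152). The median log2 change of the 9 was 9.79, with Krt33b at its bound or as fitted, against -0.05 over all genes tested.

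All 9 members met the minimum mean level of 1 FPKM over the 12 samples, but 8 of them were under that level on average in WT day 0 and met it through the other groups. Standard errors ran from 1.54 to 3.59 among the 8 called members, and Cthrc1-/- replicate 1 was lower than replicates 2 and 3 in each. The count of 8 rested on several libraries. It was 0 without WT day 0 replicate 1, 2 or 3, 1 (Krt35) without Cthrc1-/- day 0 replicate 2 or 3 or Cthrc1-/- day 7 replicate 1, and 3 (Krt35, Krt81 and Krt86) without WT day 7 replicate 2 or 3. A fit restricted to day 0 called 0 members, with edgeR adjusted p of 0.0792 to 0.126 and all 9 at an unadjusted p under 0.05, and DESeq2 on all samples called 9.

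Next, WT dermis of day 7 was set against WT dermis of day 0. In all 9 members every WT day 7 sample lay above every WT day 0 sample, as for 29.8% of genes tested. By edgeR 5 of the 9 rose, where 6.04% of genes tested were called higher, and 8 had an unadjusted p under 0.05, as had 32.5% of genes. The log2 change ± standard error was 8.55 ± 1.47 for Krt35 (edgeR adjusted p = 0.00774), 8.75 ± 2.09 for Krt86 (adjusted p = 0.0253), 8.81 ± 2.33 for Krt81 (adjusted p = 0.0354) and 7.51 ± 2.14 for Krt33a (adjusted p = 0.0454). Krt33b was at least 599-fold higher in mean CPM on day 7 against the floor of 3 counts per library (edgeR adjusted p = 0.0407). Its WT day 7 replicates 1 to 3 were at 6.19, 60.6 and 27.4 CPM, a spread the bound does not cover. Krt34, Krt83, Krt31 and Krt32 had log2 changes of 6.91, 6.15, 4.82 and 1.91, with edgeR adjusted p of 0.0502, 0.0649, 0.0798 and 0.200. The median over the 9 was 7.51, with Krt33b at its bound or as fitted, against -0.00185 over all genes tested.

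In WT between days, Krt35 was called with any 1 of the 12 libraries left out (highest edgeR adjusted p 0.0439). The count of 5 fell to 1 (Krt35) without any WT day 0 replicate or WT day 7 replicate 2, to 2 (Krt35 and Krt86) without Cthrc1-/- day 0 replicate 2 or Cthrc1-/- day 7 replicate 1, and to 3 (Krt35, Krt81 and Krt86) without WT day 7 replicate 1 or 3. It was 8 without Cthrc1-/- day 0 replicate 1, and likewise 8 in a fit restricted to WT. This comparison and that of genotypes on day 0 share the WT day 0 samples. Side by side, mean levels in Cthrc1-/- day 0 and WT day 7 were 239 and 105 FPKM for Krt35, 253 and 30.1 FPKM for Krt31, and 246 and 20.8 FPKM for Krt83.

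**Figure D3:**
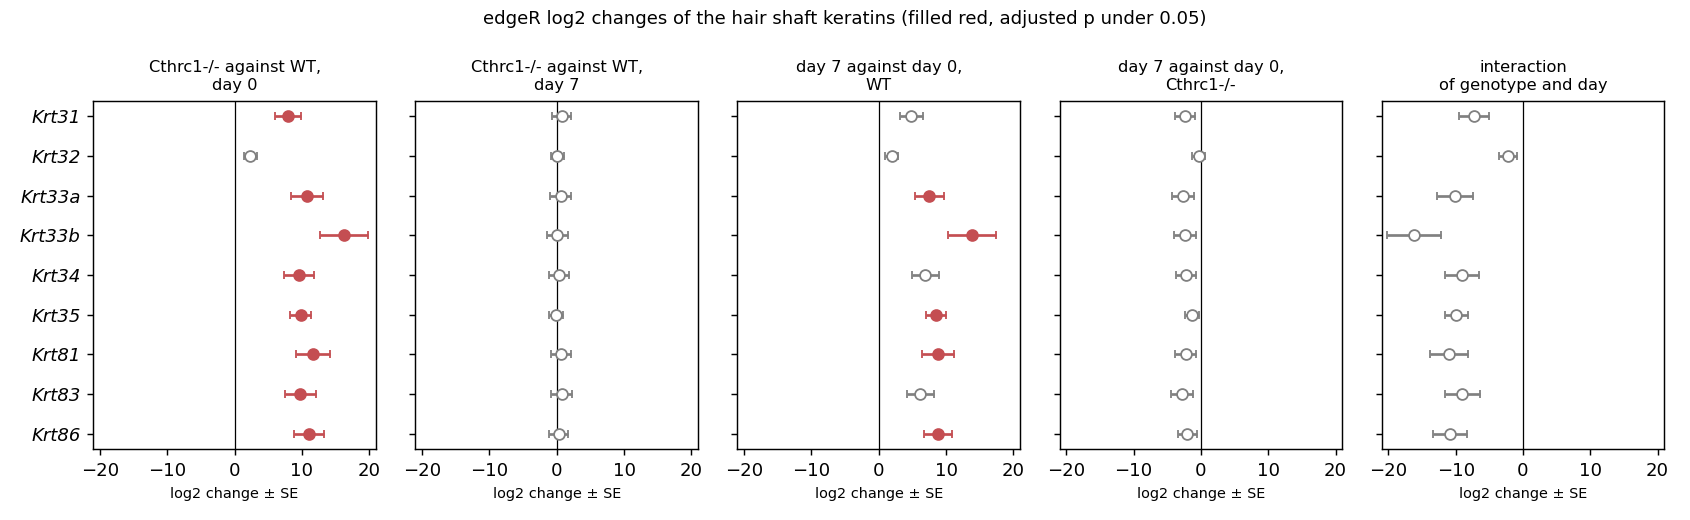
edgeR log2 change ± standard error (x axis) of each hair shaft keratin (y axis) in the 5 comparisons, 1 panel each, with filled red symbols at an adjusted p under 0.05. Of the 9 genes, 8 are filled for genotypes on day 0 and 5 for days in WT, and 0 in the other 3 panels. The fitted values of Krt33b in the panels that use WT day 0 depend on the treatment of 0 counts.

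On day 7 the genotypes overlapped in every member, where 6.46% of genes tested were higher and 2.67% lower in Cthrc1-/- without overlap. By edgeR 0 of the 9 were called and 0 had an unadjusted p under 0.05, where 0.021% and 5.46% of genes tested did, and DESeq2 and limma on log2(FPKM + 1) also called 0. Log2 changes of Cthrc1-/- against WT ran from -0.09 for Krt35 (standard error 1.04) to 0.77 for Krt83 (standard error 1.55), with edgeR adjusted p of 0.996 to 0.998. Mean Krt35 was 102 ± 81.8 FPKM in Cthrc1-/- and 105 ± 46.4 FPKM in WT (SD, n = 3 each), and mean Krt83 was 36.6 ± 47.8 and 20.8 ± 19.3 FPKM. With standard errors of 0.932 to 1.59 on the log2 scale, changes of several-fold in either direction were not detectable. The sign turned with single libraries: it was negative in all 9 without Cthrc1-/- day 7 replicate 3, at -0.89 for Krt31 and -1.17 for Krt83, and in 5 of the 9 without WT day 7 replicate 1.

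Between days within Cthrc1-/- the levels overlapped as well, where 21.5% of genes tested were higher and 4.99% lower on day 7 without overlap. By edgeR 0 of the 9 were called and 0 had an unadjusted p under 0.05, where 1.46% and 18.1% of genes tested did, and DESeq2 and limma on log2(FPKM + 1) called 0. The 9 log2 changes of day 7 against day 0 were negative, from -2.86 for Krt83 (standard error 1.65, edgeR adjusted p = 0.393) to -0.35 for Krt32 (standard error 0.933, edgeR adjusted p = 0.884), with a median of -2.23 against -0.01 over all genes. Each difference was within the spread of replicates, since replicate 1 of day 0 was lower than replicates 1 and 3 of day 7 in every member. Without Cthrc1-/- day 0 replicate 3 the changes of Krt32 and Krt35 were 0.43 and 0.0396, and without Cthrc1-/- day 7 replicate 2 that of Krt32 was 0.18.

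The interaction is the change between days in Cthrc1-/- less that in WT. Its log2 values were negative in all 9 members, from -2.26 for Krt32 (standard error 1.34) to -11.04 for Krt81 (standard error 2.81), leaving aside Krt33b with its 0 counts in WT day 0. By edgeR 0 of the 9 passed, where 0.014% of genes tested did. Unadjusted p was under 0.05 for 8 of the 9, Krt32 being the other, and for 15.1% of genes tested. The lowest edgeR adjusted p was 0.137, for Krt35. DESeq2 called the 8, and limma on log2(FPKM + 1) called 0. Without Cthrc1-/- day 0 replicate 1 edgeR called 2, Krt35 and Krt86.

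Other genes known from the follicle were taken from fixed lists. Their counts stand beside the 3.51% (genotypes on day 0) and 6.04% (days in WT) of all genes tested that edgeR called higher. Of 6 further hair shaft keratins, 5 could be tested and 4 rose in Cthrc1-/- on day 0, and 4 rose in WT between days. Krt87, a type II hair keratin, ranged from 0.176 to 0.212 FPKM (WT) and 2.68 to 369.7 FPKM (Cthrc1-/-) on day 0, and from 5.65 to 56.8 FPKM (WT) and 1.95 to 99.6 FPKM (Cthrc1-/-) on day 7. Its log2 change was 9.56 between genotypes on day 0 (edgeR adjusted p = 0.0359) and 6.94 between days in WT (adjusted p = 0.0372). Krt87 and the member Krt81 share an unbroken stretch of 170 coding bases, so reads from that stretch cannot be told apart. Krt84, another type II hair keratin, was at 0 to 0.217 FPKM in WT day 0, at 0.838, 33.1 and 4.50 FPKM in Cthrc1-/- day 0, and at most 0.208 FPKM in WT day 7. It rose between genotypes on day 0 (log2 change 6.91, edgeR adjusted p = 0.0371), and did not pass for WT day 7 against day 0 (0.51, adjusted p = 0.820).

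Keratins of the inner root sheath, the sleeve that moulds the growing shaft, were more abundant in the 9 libraries outside WT day 0, and less abundant in the 3 of WT day 0. The 9 genes of that list, trichohyalin (Tchh) included, summed to between 2.77 and 5.60 FPKM (WT) and between 232 and 11695 FPKM (Cthrc1-/-) on day 0. On day 7 the sums were between 1683 and 4086 FPKM (WT) and between 512 and 5374 FPKM (Cthrc1-/-). By edgeR 8 of 9 rose between genotypes on day 0 and 8 of 9 between days in WT, with median log2 changes of 10.60 and 9.78. In Cthrc1-/- day 7 replicate 2 the sheath list was at 512 FPKM and the hair shaft keratins at 27.5 FPKM, and both were the lowest of the 6 day 7 libraries. Of 5 keratins of the companion layer and outer root sheath, 2 rose in each of these comparisons. They were Krt16 and Krt17 on day 0 (log2 changes 2.90 and 1.18) and Krt6b and Krt16 between days in WT (4.46 and 3.44). Those not called on day 0 were Krt6b (2.02), Krt6a (1.63) and Krt75 (0.20). Between days in WT they were Krt6a (0.91), Krt17 (-0.36) and Krt75 (-0.56). These bulk libraries do not show whether transcripts of this list came from follicle or epidermis.

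Of 9 transcription factors of the shaft lineage, 3 rose between genotypes on day 0 and 3 between days in WT. Dlx3, a homeobox factor, rose by 4.53 (edgeR adjusted p = 0.0329) and 4.09 (adjusted p = 0.0202). Msx2 rose by 3.62 and 2.97 and Lef1, a mediator of Wnt signals, by 3.11 and 2.75. Hoxc13, a regulator of hair keratin genes, was at 5.78 to 7.44 FPKM (WT) and 9.52 to 67.5 FPKM (Cthrc1-/-) on day 0, and at 8.88 to 31.3 FPKM (WT) and 7.59 to 38.99 FPKM (Cthrc1-/-) on day 7. It passed in neither comparison (log2 changes 2.25 and 1.55, edgeR adjusted p 0.0842 and 0.157). Nor did Gata3 (0.30 and -0.25, edgeR adjusted p 0.636 and 0.697) or Ovol1 (1.21 and 0.63, edgeR adjusted p 0.0785 and 0.271). Of 11 enzymes and other proteins of the shaft, 7 rose between genotypes on day 0 and 5 between days in WT. Padi3, which converts arginine residues of hair proteins to citrulline, had log2 changes of 10.59 and 9.70 (edgeR adjusted p 0.0213 and 0.00875). S100a3, a calcium-binding protein of the hair cuticle, had 7.72 and 6.88 (adjusted p 0.0371 and 0.0245). On day 7 between genotypes, and between days in Cthrc1-/-, edgeR called 0 genes of these 5 lists. At an unadjusted p under 0.05 there was 1 transcription factor in the first, where 5.46% of genes tested had such a p, and 1 further hair shaft keratin and 2 companion layer and outer root sheath keratins in the second, where 18.1% had.

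The genes outside the set most like it in pattern were those with the highest Pearson r, over the 12 samples, with the mean log2(FPKM + 1) of the 9 members. They were Krt87 (r = 0.999), Gprc5d (0.994), a receptor-like protein of hair cortex cells, the keratin-associated protein genes Krtap11-1 (0.993), Krtap3-1 (0.991), Krtap8-1 (0.990), Krtap7-1 (0.987) and Krtap3-3 (0.987), and Ly6g6d (0.988). Krtap8-1 reached a mean of 798 FPKM in Cthrc1-/- day 0, above every hair shaft keratin there, against 58.1 FPKM (WT) and 104.6 FPKM (Cthrc1-/-) on day 7. Krtap11-1 averaged 292, 24.96 and 45.8 FPKM in the same groups.

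Markers of other cells moved with these values in part. Melanocyte genes (Dct, Tyr, Tyrp1, Pmel and Mlana), which pigment the growing shaft, summed to between 11.6 and 13.02 FPKM (WT) and between 31.1 and 144 FPKM (Cthrc1-/-) on day 0, and to between 60.2 and 159 FPKM (WT) and between 54.3 and 185 FPKM (Cthrc1-/-) on day 7. Of the 5, 2 rose between genotypes on day 0 and 4 between days in WT, where 3.51% and 6.04% of genes tested were called higher. Proliferation genes (Mki67, Top2a, Ccnb1 and Cdk1) summed to 15.5 to 23.8, 33.1 to 66.3, 41.0 to 66.9 and 49.8 to 58.7 FPKM in the same order of groups. By edgeR 2 of 4 were called higher on day 0 and 4 of 4 between days in WT, beside the same shares of genes tested. Of 5 bulge and outer root sheath markers (Krt15, Lgr5, Cd34, Sox9 and Lhx2), 3 fell between days in WT, namely Krt15, Sox9 and Lhx2 (log2 changes -3.19, -1.60 and -1.09), where 7.1% of genes tested were called lower. On day 0 between genotypes edgeR called 0 of the 5. Cd34 had an unadjusted p under 0.05, as had 28.4% of genes tested. The signs were mixed: -1.14 for Krt15 and -1.43 for Cd34, but 0.48 for Sox9, 0.10 for Lhx2 and 0.06 for Lgr5. In WT day 0 the summed level of this list, 2369 to 2510 FPKM, was nearly all Krt15, which averaged 2310 FPKM there. All 4 adipocyte markers (Adipoq, Cidec, Plin1 and Fabp4) fell between days in WT, by log2 changes of -3.10, -3.12, -3.33 and -1.07 (edgeR adjusted p 0.0305, 0.0402, 0.0464 and 0.0400). On day 0 between genotypes their log2 changes were -1.98, -1.75, -2.60 and -0.42. By edgeR 0 were called and 2 had an unadjusted p under 0.05, as had 28.4% of genes tested. The fibroblast list was lowest, at 337 FPKM, in Cthrc1-/- day 0 replicate 3, the library with the highest hair shaft keratin level. Between genotypes on day 0 Col1a2 was the 1 of 6 called lower, where 2.26% of genes tested were. Of these 6, 5 had an unadjusted p under 0.05 by edgeR, as had 28.4% of genes tested. The median log2 change of the 6 was -1.84. No defining marker of these 5 lists was at 0 in a whole group. Cthrc1-/- day 0 replicate 3 was also the lowest of the 12 libraries for lists of other cells. Skeletal muscle genes (Acta1, Ckm, Myh4, Mylpf and Tnnt3) summed there to 56.3 FPKM. Myeloid genes (Ptprc, Cd68, Adgre1, Itgam and Lyz2) summed to 66.1 FPKM, and endothelial genes (Pecam1, Cdh5 and Kdr) to 11.3 FPKM. The epidermis, bulge and adipocyte lists were lowest in WT day 7 libraries. The part of these shifts in the keratin differences was not tested.

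**Figure D4:**
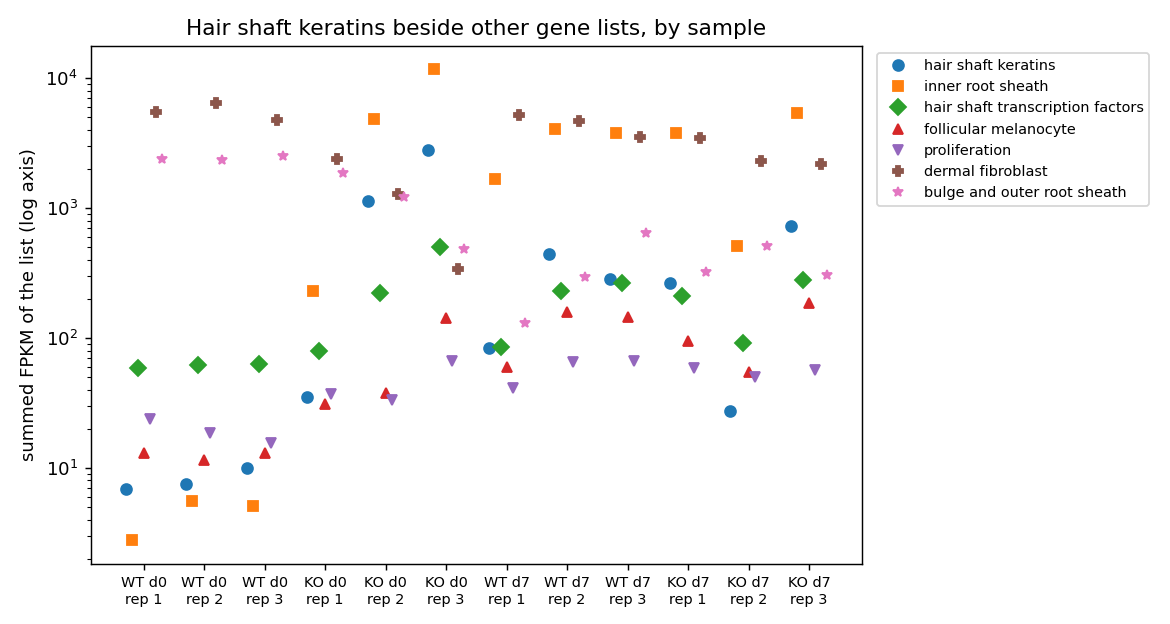
Summed FPKM (log y axis) of the 9 hair shaft keratins and of 6 other gene lists in each of the 12 samples (x axis), with 1 symbol and colour per list. The hair shaft keratins run from 6.85 FPKM in WT day 0 replicate 1 to 2829 FPKM in Cthrc1-/- day 0 replicate 3, where the fibroblast list is at its lowest, 337 FPKM.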

How the data were processed

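Oligo(dT)-selected RNA from dermis was made into dUTP-marked paired-end libraries with molecular identifiers, per the labels' protocols. The submitters' processing notes name GRCm38, cutadapt 1.9, HISAT2 2.0.4, StringTie 1.3.4d and UMI-tools, with no role or order. The deposited table gives whole-number counts and FPKM per gene and sample, both computed by the authors. The FPKM of 0.0001 that the authors deposited at counts of 0 was taken as 0. Use of strand in counting is not given in the sources used here.

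Groups and replicate numbers came from the sample titles. Symbols matched 55141 of 55401 gene IDs. The 14313 genes averaging at least 1 FPKM were fitted on counts with edgeR 4.0.16 (glmQLFit and glmQLFTest, TMM, two-sided, R 4.3.3), all 12 samples in 1 fit with a mean per group, Benjamini-Hochberg adjustment over all genes and calls at an adjusted p under 0.05. Standard errors are the log2 change over the square root of F. With 3 against 3 samples an exact permutation test cannot go below p = 0.1, so none was used. Floors of 3 counts cover counting error only.

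All members were named; so were genes among the 4 of highest mean FPKM in each list and the 8 genes most like the members. Msx2, Lef1, Lgr5 and Krt75 were named after their values were seen. Members and lists were chosen with earlier results of these data known. Alternatives were DESeq2 1.42.0, limma 3.58.1 on log2(FPKM + 1) and log2(FPKM + 0.1), other scalings and filters, only the groups compared, a replicate block, counts divided by 4 and leaving out each sample. The fits were tested on simulated counts with the same spread for every gene. That test does not cover genes with the wide spread of these members. Value columns left unused numbered 0.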

Additional observations from a re-analysis of the deposited data

How the results depend on the processing

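For genotypes on day 0, 8 hair shaft keratins were called as reported, against 1 with limma on log2(FPKM + 1), 3 with no filter on low values, 0 when only the groups compared were fitted, and 0 to 8 with 1 sample left out. For days in WT, 5 were called as reported, against 8 with DESeq2, 1 with limma on log2(FPKM + 1), 3 with limma on log2(FPKM + 0.1), 3 with counts divided by 4, 3 with no filter, 8 when only the groups compared were fitted, and 1 to 8 with 1 sample left out. For the interaction, 0 were called as reported, 8 with DESeq2, and 0 to 2 with 1 sample left out. On day 7 between genotypes, and between days in Cthrc1-/-, 0 were called under every alternative run. Where only the groups compared were fitted, or a sample was left out, fewer samples entered the fit; the cause of the other shifts was not tested. No sign changed in the comparisons of genotypes on day 0, of days in WT or in the interaction. With scaling to total counts the median log2 change of all genes was 0.20 between days in WT and 0.16 in Cthrc1-/-. As reported these medians were -0.00185 and -0.0128. That scaling called 8 and 6 members in the 2 comparisons with calls.

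With the replicate number as a block, 6 members were called on day 0, 4 between days in WT, and 0 in the other comparisons. Same-numbered samples of the 2 days deviated together weakly in WT (r = 0.0869, 0.0232 and 0.0743 across genes), where each sample correlated best with its own number, and at -0.0646, -0.124 and 0.426 in Cthrc1-/-, where this did not hold, so the numbers were not taken as pairs.

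The sign of the difference between genotypes on day 7 was not settled. With 1 sample left out the log2 change ran from -0.89 to 1.56 for Krt31, -0.85 to 0.61 for Krt32, -0.999 to 1.83 for Krt33a, -1.19 to 0.99 for Krt33b, -1.09 to 1.93 for Krt34, -0.78 to 0.41 for Krt35, -1.12 to 1.98 for Krt81, -1.17 to 1.78 for Krt83 and -1.02 to 1.26 for Krt86. With limma on log2(FPKM + 1) it turned from positive in the edgeR fit to negative for Krt32 (-0.28), Krt33b (-0.40), Krt83 (-0.0348) and Krt86 (-0.21). With limma on log2(FPKM + 0.1) it turned likewise, to -0.0908 for Krt31, -0.34 for Krt32, -0.00436 for Krt33a, -0.68 for Krt33b, -0.0904 for Krt81, -0.24 for Krt83 and -0.41 for Krt86. Between days in Cthrc1-/-, leaving out 1 sample gave -1.28 to 0.43 for Krt32 and -2.01 to 0.0396 for Krt35.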
